A study of Mus musculus with 20 samples.

Results

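The Krüppel-like factors described here are 10 genes, Klf2, Klf3, Klf4, Klf5, Klf6, Klf9, Klf10, Klf11, Klf13 and Klf15, chosen by name from the 26214 genes listed in both deposited comparison tables. All 10 were found in each table with a p-value. RNA came from the heart apex of 20 uninjured FVB/NRj mice of wild-type genotype, aged 28 days after birth. All mice had received AAV9, an adeno-associated virus vector with good uptake by heart muscle, by injection behind the eye. In 1 pair of groups the cargo stood behind the CMV promoter, which is active in most cell types, and was either a control or Zeb2os, the noncoding RNA made opposite to Zeb2. The other pair carried a control or Zeb2os behind hTNNT2, the human promoter of cardiac troponin T, which is active in heart muscle cells. Each of the 4 groups held 5 mice. What the control cargo consisted of is not given in the labels. The CMV control had 2 males and CMV Zeb2os had 1. The hTNNT2 control had 0 males and hTNNT2 Zeb2os had 3, so sex and Zeb2os cannot be fully told apart with this promoter.

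Krüppel-like factors are transcription factors that end in a conserved run of zinc fingers, with which they bind GC-rich and CACCC sequences in promoters. Their other end differs between members and recruits either activators or repressors. In the heart and its vessels they are known for keeping endothelium quiescent under flow, for answering injury and growth signals, for transmitting transforming growth factor beta and glucocorticoid signals, and for setting the use of fats and amino acids as fuel. In these hearts 9 of the 10 were well measured, none passed the test with Zeb2os behind either promoter, and the flow-induced pair Klf2 and Klf4 had the lowest fold changes.

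Promoter windows are shown first for Klf2 and Klf4, the members with the lowest fold changes below, and for Klf15, whose window held the most E-boxes of the members. RefSeq's table for GRCm38.p6 gave a window from 250 bases before to 50 bases after the start for 8 of the 10 members, and Klf5 and Klf10 had none. Each sequence is written 5′ to 3′ on the strand of its gene. The Klf2 window lies on the plus strand at chr8:72318812-72319111, and its capitals mark a site for MEF2, a transcription factor of muscle and endothelium.
Klf2: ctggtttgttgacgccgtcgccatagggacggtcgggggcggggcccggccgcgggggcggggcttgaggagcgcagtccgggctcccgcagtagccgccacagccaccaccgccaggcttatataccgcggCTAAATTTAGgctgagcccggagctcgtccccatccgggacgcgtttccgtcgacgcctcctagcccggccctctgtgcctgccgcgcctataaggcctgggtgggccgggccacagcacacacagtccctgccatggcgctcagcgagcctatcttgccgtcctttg
The Klf4 window lies on the minus strand at chr4:55532426-55532725, and its capitals mark the letters GGGCGG, the core bound by SP factors, on either strand; the first 2 of 4 copies share a base.
Klf4: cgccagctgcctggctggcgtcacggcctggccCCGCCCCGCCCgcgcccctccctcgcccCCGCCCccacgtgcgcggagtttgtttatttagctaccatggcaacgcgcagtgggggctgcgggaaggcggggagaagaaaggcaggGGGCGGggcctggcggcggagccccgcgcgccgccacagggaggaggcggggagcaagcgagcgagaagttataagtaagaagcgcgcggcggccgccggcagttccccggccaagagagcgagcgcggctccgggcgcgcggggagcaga
The Klf15 window lies on the plus strand at chr6:90462326-90462625, and its capitals mark the letters CACGTG, the E-box bound by clock and other factors.
Klf15: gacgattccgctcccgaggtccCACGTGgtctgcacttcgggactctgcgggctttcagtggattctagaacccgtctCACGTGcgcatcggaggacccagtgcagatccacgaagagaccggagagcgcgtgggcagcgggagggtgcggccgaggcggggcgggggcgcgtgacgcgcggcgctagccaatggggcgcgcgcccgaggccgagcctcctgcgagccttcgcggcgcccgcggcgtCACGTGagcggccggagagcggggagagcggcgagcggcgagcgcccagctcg
Both strands were searched in each window, and a palindrome counted once. The MEF2 site began 118 bases before the start of Klf2. Of the 8 windows, 1 held a MEF2 site, against 3.19% of all 32851 windows. GGGCGG was present in 7 of 8 windows, with 6 copies in Klf3, against 35.7% of all windows. The members' windows were GC-rich, from 63% to 77.7%, where the median window had 52.7%. CACGTG was present in 4 of 8 windows, against 7.15% of all. Klf15 held 3 copies, and 0.0883% of all windows held 3 or more. The KLF core CACCC stood in 5 of 8 windows, with 5 copies in Klf3, against 57.5% of all windows. The letters TGACGTCA, those of TATAAA and the CArG box of serum response factor were in 0 of the 8 windows, and in 1.79%, 13.6% and 1.63% of all. These matches describe letters only, and binding was not measured.

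The first question was how much of each factor the heart apex held. The deposited level is a mean normalised count over the 10 libraries of a comparison, so control and Zeb2os mice are not separated in it, and no value of a single mouse was used. The sources used here do not give the sequencing depth of any library. To set genes beside each other, the mean count was divided by the length of merged exons in GENCODE M21 on GRCm38. Klf9, a repressor induced by glucocorticoid and thyroid hormone, had the highest level, with 1743 counts per kilobase per the authors' deposited table for CMV, against 2012 per that for hTNNT2. Klf2 followed with 1158 and 1315 counts per kilobase, and Klf6 with 993 and 1166, per the authors' deposited tables. Klf4 at 675 and Klf13 at 655 counts per kilobase lay close together in the authors' deposited CMV table. Klf15 stood at 556, Klf3 at 409, Klf10 at 298 and Klf11 at 211 counts per kilobase per the authors' deposited table for CMV. The order of the 10 genes was the same in both tables, and whether neighbours in it differ beyond the spread between mice could not be tested. Klf5, known as an activator in growing and injured muscle, stood far below the rest, at 4.22 counts per kilobase per the authors' deposited table for CMV, against 4.84 per that for hTNNT2. Its mean count was 21.9 and 25.2 per the authors' deposited tables, under the mean count of 50 that the other 9 members passed. Between the separately normalised tables the members' mean counts had ratios of 1.10 to 1.19, hTNNT2 over CMV, and genes averaging 50 counts or more had a median ratio of 1.16.

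**Figure D1:**
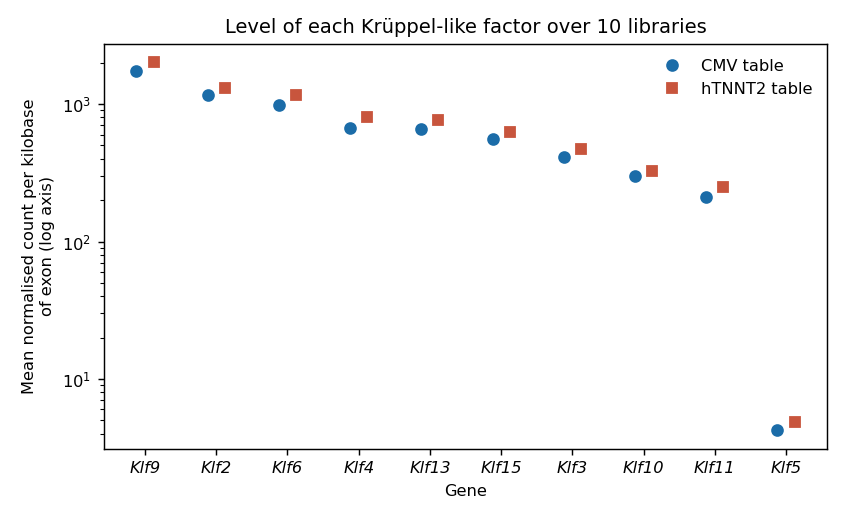
Mean normalised count per kilobase of exon (log axis) of each Krüppel-like factor, 1 point per deposited table, each a mean over 10 libraries. Klf9 is highest at 1743 and 2012, Klf5 is lowest at 4.22 and 4.84, and the order is the same in both tables.

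The second question was which members changed with Zeb2os. Judged by an adjusted DESeq2 p under 0.05 per the authors' deposited tables, 0 of 10 members rose or fell with CMV and 0 of 10 with hTNNT2. Over all genes, 0.00469% passed with CMV, which is 1 gene, Zeb2os itself. With hTNNT2 0.0326% passed, which is 7 genes with Zeb2os among them. A count of 0 is therefore what the background share gives for a list of this size. At an unadjusted p under 0.05, 0 members were higher and 2 lower with CMV per the authors' deposited table, where 0.661% of all 21318 genes were higher and 1.01% lower. The 2 were Klf2 and Klf4, and since members were chosen with earlier results known, this share is a description. With hTNNT2, 0 were higher and 0 lower at that threshold per the authors' deposited table, against 2.27% and 1.64% of 21461 genes. The median log2 fold change of the members was 0.042 with CMV and -0.016 with hTNNT2 per the authors' deposited tables, beside -0.00016 and -0.00080 over all genes tested. The deposited SE was 0.051 for Klf5 at a mean count of 21.9 and 0.071 for Klf10 at 1244 per the authors' deposited table for CMV. A plain ratio of counts has its larger SE at the lower count, which is not what these values show, so the fold changes and 95% intervals below hold on the deposited scale alone. Where intervals are given they were computed from the deposited SE.

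Zeb2os itself, which checks the labels, rose by 3.66 on the log2 scale (SE 0.071) with CMV and by 4.53 (SE 0.083) with hTNNT2 per the authors' deposited tables. Zeb2 did not pass, at -0.0095 (SE 0.059) and 0.033 (SE 0.080) per the authors' deposited tables.

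**Figure D2:**
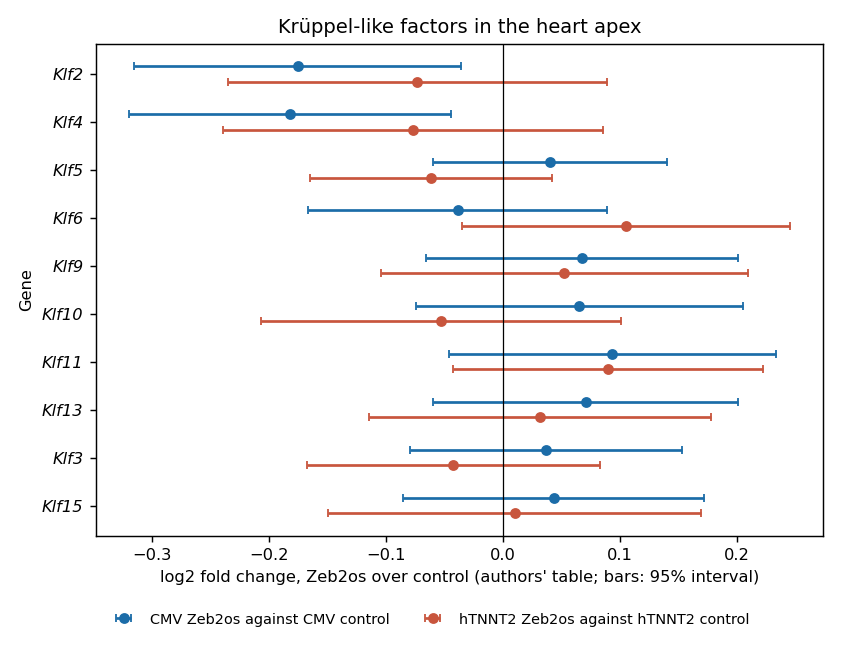
Log2 fold change of each Krüppel-like factor, Zeb2os over control, from the authors' deposited tables, with bars for the 95% interval from the deposited SE (5 against 5 mice for each promoter). The CMV intervals of Klf2 and Klf4 lie below 0 before adjustment, and each of the other 18 intervals spans 0.

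Klf2 and Klf4 are the pair that blood flow induces in endothelium, where both hold back inflammation and clotting. Klf4 also drives smooth muscle cells away from their contractile state and is one of the factors used to reprogram cells. They were the lowest 2 members with CMV. Klf4, on chromosome 4 from 55527143 to 55532466, had a mean count of 2060 and a log2 fold change of -0.18 (SE 0.070, 95% interval -0.32 to -0.044) per the authors' deposited table. Its unadjusted p was 0.0095 and its adjusted p was 1 per the authors' deposited table, the rank of that p being 59 of 21318. Klf2, on chromosome 8 from 72319033 to 72321656, had a mean count of 2139 and a log2 fold change of -0.18 (SE 0.071, 95% interval -0.31 to -0.036) per the authors' deposited table. Its unadjusted p was 0.0139 and its adjusted p was 1 per the authors' deposited table, at rank 88. Their RNA was 11.8% and 11.4% lower in CMV Zeb2os mice on this scale, and neither gene passed. Both fold changes were larger in size than 99.8% (Klf4) and 99.7% (Klf2) of the 13212 genes averaging 50 counts or more, against 74.5% and 72.2% of 13358 such genes with hTNNT2. In bulk tissue, fewer cells of a type and less RNA per cell cannot be told apart. With hTNNT2 Klf4 stood at -0.077 (SE 0.083) and Klf2 at -0.073 (SE 0.083), both with adjusted p = 1.00 per the authors' deposited table. Their unadjusted p-values were 0.354 and 0.379 per the authors' deposited table.

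Markers of the cells that carry this pair were read beside them. Endothelial markers stood at a median log2 fold change of -0.042 with CMV, with 10 of 12 lower, 0 passing and a range from -0.13 to 0.045 per the authors' deposited table. The lowest, the growth factor receptor Kdr, stood at -0.13 (SE 0.066), and Egfl7, a secreted protein of endothelium, at -0.10 (SE 0.071), per the authors' deposited table. Pecam1 and Cdh5, singled out after their values were seen, had mean counts of 11083 and 17217 per the authors' deposited table for CMV. Their log2 fold changes were -0.019 (SE 0.070) and -0.022 (SE 0.071) with CMV per the authors' deposited table. With hTNNT2 they stood at 0.071 (SE 0.072) and 0.064 (SE 0.075) per the authors' deposited table. Of 10 smooth muscle and pericyte markers, 9 were lower with CMV, with a median of -0.056 and 0 passing, the actin-binding Tagln at -0.14 (SE 0.071) and the receptor Notch3 at -0.10 (SE 0.052) per the authors' deposited table. With hTNNT2, 6 of 12 endothelial markers and 10 of 10 smooth muscle and pericyte markers were higher, with medians of 0.0022 and 0.10 and 0 passing per the authors' deposited table. The part of these cells in the values of Klf2 and Klf4 was not tested.

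Klf6 and Klf5 answer injury and growth signals, Klf6 as a factor induced within a short time of wounding. Klf6 had a mean count of 4362 and a fold change of -0.038 on the log2 scale (SE 0.065, adjusted p = 1) with CMV per the authors' deposited table. With hTNNT2 it had the highest value of the 10, at a mean count of 5118 and 0.11 on the log2 scale (SE 0.072, unadjusted p = 0.140, adjusted p = 1.00) per the authors' deposited table. Klf5 stood at 0.040 (SE 0.051) with CMV and at -0.061 (SE 0.053) with hTNNT2 per the authors' deposited tables. Neither gene passed, and the intervals of both spanned 0 with each promoter. With hTNNT2, 12 of 12 macrophage and monocyte markers were higher, 1 of them passing, with a median of 0.16, against a median of -0.0070 and 0 passing with CMV, per the authors' deposited tables. That gene, Lyz2, the lysozyme of myeloid cells, rose by 0.34 (SE 0.071, adjusted p = 0.0154) per the authors' deposited table. Fibroblast markers had 9 of 10 higher with hTNNT2 and 8 of 10 with CMV, 0 passing, with medians of 0.13 and 0.017, per the authors' deposited tables. Over all genes, 0.0326% passed with hTNNT2. At an unadjusted DESeq2 p under 0.05, 6 of 12 macrophage and monocyte markers and 5 of 10 fibroblast markers were higher with hTNNT2. That was so for 2.27% of all genes, and for 0 markers of either list with CMV. The lists were chosen with earlier results known, so these counts are a description. Males numbered 0 in the hTNNT2 control and 3 in hTNNT2 Zeb2os, so sex and Zeb2os cannot be fully told apart here. The part of macrophages, monocytes and fibroblasts in the value of Klf6 was not tested.

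Klf9, Klf10, Klf11 and Klf13 belong to the branch that recruits the SIN3 repressor. Klf10 and Klf11 are early genes of transforming growth factor beta, and Klf13 is known, mainly from frog embryos, to work with Gata4 in the heart. Klf11 had nearly the same value with both promoters, a log2 fold change of 0.094 (SE 0.071) with CMV and 0.090 (SE 0.068) with hTNNT2 per the authors' deposited tables. Its unadjusted p was 0.188 and 0.182, and its adjusted p was 1 and 1.00, per the authors' deposited tables. Klf9, with a mean count of 8392 for CMV and 9689 for hTNNT2, stood at 0.068 (SE 0.068) and 0.053 (SE 0.080) per the authors' deposited tables. Klf13, with mean counts of 4935 and 5795, stood at 0.071 (SE 0.067) and 0.032 (SE 0.075) per the authors' deposited tables. Klf10 stood at 0.065 (SE 0.071) with CMV and at -0.053 (SE 0.079) with hTNNT2 per the authors' deposited tables. None of the 4 passed in either DESeq2 table, and none had an unadjusted p under 0.05. With CMV these 4 lay above 0, and with hTNNT2 3 of 4 did. Klf16, of the same branch but not among the 10 and named after its values were seen, stood at -0.018 (SE 0.071) with CMV and at 0.092 (SE 0.079) with hTNNT2 per the authors' deposited tables. In GENCODE M21 the exons of Klf13 shared 0 bases with the pair of genes that overlap it on the opposite strand, and Klf9 holds the microRNA gene Mir1192 in an intron.

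Klf3 and Klf15 stand for a repressor that recruits CtBP and for the regulator of fuel use and rhythm in adult heart muscle. Klf3 had a mean count of 4601 and a log2 fold change of 0.037 (SE 0.059) with CMV per the authors' deposited table. With hTNNT2 it had a mean count of 5319 and stood at -0.042 (SE 0.064) per the authors' deposited table. Of its 11243 exonic bases, 404 (3.59%) are shared with Gm20033 on the opposite strand, and the sources used here do not say how the counting treated strand. Klf15, on chromosome 6 from 90462576 to 90475238, was the member closest to 0 with hTNNT2, at a mean count of 1735 and a log2 fold change of 0.010 (SE 0.081, 95% interval -0.15 to 0.17) per the authors' deposited table. With CMV it stood at 0.044 (SE 0.066, 95% interval -0.085 to 0.17) at a mean count of 1551 per the authors' deposited table. Cardiomyocyte markers had 8 of 9 higher with CMV (median 0.051) and 9 of 9 lower with hTNNT2 (median -0.051), with 0 passing per the authors' deposited tables. Their part in the values of Klf15 was not tested.

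**Figure D3:**
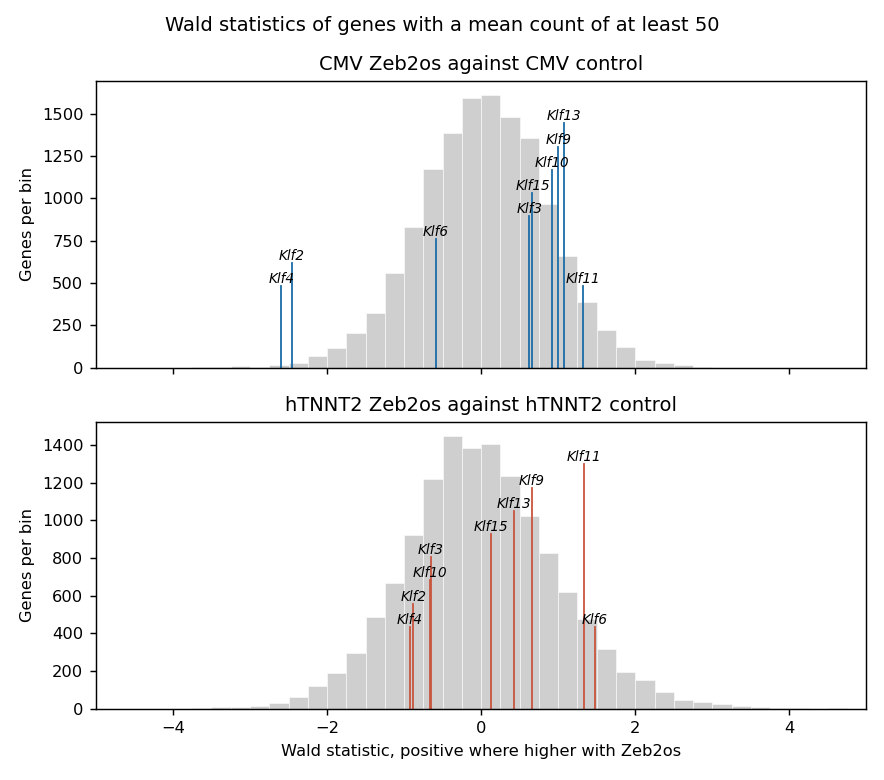
Wald statistic (x axis, above 0 for genes higher in Zeb2os mice) of genes averaging 50 counts or more, in bins of 0.25, with the 9 Krüppel-like factors above that count as coloured lines whose height only separates the names. Klf4 and Klf2 lie at -2.59 and -2.46 with CMV and at -0.93 and -0.88 with hTNNT2; Zeb2os lies outside the axis.

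The third question was whether any member responded differently with the 2 promoters, whose controls are different mice. The CMV value was subtracted from the hTNNT2 value on the log2 scale, with a 2-sided normal p adjusted by the Benjamini-Hochberg method over 20754 genes. The subtraction takes the fold changes of both tables to be on the same scale, which the sources used here do not state. Of 10 members, 0 differed at an adjusted p under 0.05 and 0 at an unadjusted p under 0.05, against 0.00482% and 2.65% of all genes. Klf6 came closest, with a difference of 0.14 (SE 0.097), and its 95% interval from -0.046 to 0.33 spanned 0. Differences were 0.10 (95% interval -0.11 to 0.32) for both Klf2 and Klf4, so the values of this pair with the 2 promoters were not shown to differ. The smallest difference was that of Klf11, at -0.0036 (SE 0.098, 95% interval -0.20 to 0.19). Over the 10 members the intervals of the difference reached from -0.33 to 0.33, and they do not show that the promoters act alike. In direction, 6 members had the same sign with both promoters, Klf2 and Klf4 below 0 and Klf9, Klf11, Klf13 and Klf15 above it.

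Other members of the family and the related SP factors were taken from a list of 17 genes. Of these, 14 had a p-value with CMV and 16 with hTNNT2, and 0 passed with either promoter per the authors' deposited tables. The medians were 0.0044 and -0.0032 on the log2 scale per the authors' deposited tables. Klf12, a CtBP-recruiting repressor, stood at -0.14 (SE 0.071, unadjusted p = 0.0502) with hTNNT2 at a mean count of 2146, and at 0.055 (SE 0.063) with CMV, per the authors' deposited tables. Klf14 stood at 0.093 (SE 0.047, unadjusted p = 0.0497) with hTNNT2 and had a mean count of only 16.1 per the authors' deposited table. With CMV it stood at 0.034 (SE 0.032) at a mean count of only 10.6 per the authors' deposited table. Sp1 and Sp3, general activators of GC-rich promoters, stood at 0.043 (SE 0.040) and 0.074 (SE 0.042) with CMV per the authors' deposited table. The erythroid factor Klf1 and Klf17, named after their values were seen, had mean counts of 4.20 and 0.499 per the authors' deposited table for CMV.

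Among 24 upstream regulators of these genes, 0 passed with either promoter per the authors' deposited tables. Their medians were -0.0033 with CMV and -0.023 with hTNNT2 per the authors' deposited tables. Mapk7, the kinase ERK5 that passes the flow signal to MEF2 and so to Klf2 and Klf4, stood at -0.14 (SE 0.068, unadjusted p = 0.0426) with CMV and at 0.028 (SE 0.081) with hTNNT2 per the authors' deposited tables. Piezo1, a channel opened by flow, stood at -0.099 (SE 0.067) with CMV per the authors' deposited table. The kinases Map2k5, Map3k2 and Map3k3 stood at 0.061 (SE 0.049), -0.042 (SE 0.063) and -0.044 (SE 0.039) with CMV per the authors' deposited table. The MEF2 genes Mef2a, Mef2c and Mef2d stood at 0.015 (SE 0.050), -0.00051 (SE 0.047) and -0.0046 (SE 0.050) with CMV per the authors' deposited table. Piezo1 stood at -0.055 (SE 0.066) and Map2k5 at -0.044 (SE 0.067) with hTNNT2 per the authors' deposited table. Map3k2, Map3k3, Mef2a and Mef2d stood at -0.0050, 0.0049, 0.0061 and -0.079 with hTNNT2 per the authors' deposited table. These values of Piezo1, these kinases and the MEF2 genes were named outside the naming rule, after they were seen. The serum response factor Srf stood at -0.077 (SE 0.052) with CMV and at -0.076 (SE 0.077) with hTNNT2 per the authors' deposited tables. With hTNNT2 the lowest was Smad3, a transducer of transforming growth factor beta, at -0.17 (SE 0.072, unadjusted p = 0.0164), and Mef2c stood at -0.093 (SE 0.059), per the authors' deposited table. Among 15 cofactors and turnover factors of KLF proteins 0 passed, with medians of 0.0084 and -0.035 per the authors' deposited tables. Fbxw7, the ubiquitin ligase subunit that marks Klf2 and Klf5 for breakdown, stood at -0.11 (SE 0.053, unadjusted p = 0.0465) with hTNNT2 per the authors' deposited table. The corepressor Ctbp2 and the acetyltransferase Kat2b stood at -0.055 (SE 0.050) and 0.047 (SE 0.049) with CMV, and the deacetylase Hdac1 at 0.11 (SE 0.082) with hTNNT2, per the authors' deposited tables.

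Genes known as targets were followed in 3 lists. Of 12 endothelial genes that Klf2 and Klf4 are known to raise or lower, 10 were lower with CMV, 0 passed, and the median was -0.044 per the authors' deposited table. The list mixes genes that the factors raise with genes they hold back. Among genes known to be raised, Nos3, the nitric oxide synthase of endothelium, stood at -0.043 (SE 0.064) and thrombomodulin, Thbd, at 0.0039 (SE 0.067) with CMV per the authors' deposited table. Of genes held back, the adhesion molecule Vcam1 stood at 0.16 (SE 0.069, unadjusted p = 0.0165) and the chemokine Ccl2 at -0.14 (SE 0.058, unadjusted p = 0.0164) with CMV per the authors' deposited table. The rest of the list lay below 0 with CMV, Palmd at -0.066, S1pr1 at -0.065, Tek at -0.048 and Plpp3 at -0.022. Sele stood at -0.11, Edn1 at -0.046, Nppc at -0.032 (mean count 2.31) and Angpt2 at -0.0015 per the authors' deposited table. This rest of the list is not divided here by whether the factors raise a gene or hold it back. With hTNNT2 Vcam1 stood at 0.18 (SE 0.082, unadjusted p = 0.0258) and endothelin, Edn1, at -0.19 (SE 0.082, unadjusted p = 0.0203), and the list's median was -0.0082 with 0 of 12 passing, per the authors' deposited table. Except for Vcam1, Ccl2 and Edn1, the genes of this list lay outside the naming rule and were named after their values were seen.

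Of 14 metabolic and rhythm targets of Klf15, 0 passed with either promoter, 0 had an unadjusted p under 0.05, and the medians were 0.010 with CMV and -0.0046 with hTNNT2 per the authors' deposited tables. The glucose transporter Slc2a4 stood at 0.067 (SE 0.055) and the kinase Pdk4, which spares glucose, at -0.062 (SE 0.048) with CMV per the authors' deposited table. With hTNNT2 proline dehydrogenase, Prodh, stood at -0.13 (SE 0.083) and the matrix protein Ccn2 at 0.11 (SE 0.073) per the authors' deposited table. Of 10 targets of Klf5, Klf6, Klf10 and Klf11, 0 passed, with medians of -0.0056 and -0.00034 per the authors' deposited tables. In this list and that of Klf15, the medians do not separate genes that a factor raises from genes it lowers. Igf1, a growth factor, stood at -0.14 (SE 0.071) with CMV per the authors' deposited table. With hTNNT2 Smad7, an inhibitor of transforming growth factor beta signalling, stood at -0.20 (SE 0.077, unadjusted p = 0.0082) and the protease Plau at 0.12 (SE 0.081) per the authors' deposited table.

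Klf9 and Klf15 are glucocorticoid-induced, and other genes with that property formed a list of 13. With CMV 0 passed, 6 were higher and 7 lower, and the median was -0.018 per the authors' deposited table. The lowest were Errfi1, an inhibitor of the epidermal growth factor receptor, at -0.25 (SE 0.071, unadjusted p = 0.00039), and the kinase Sgk1 at -0.21 (SE 0.063, unadjusted p = 0.00096) per the authors' deposited table. With hTNNT2 9 were higher, 0 passed, and the median was 0.034, with the lipase inhibitor Angptl4 at 0.16 (SE 0.073, unadjusted p = 0.0321) and the metallothionein Mt2 at 0.089 (SE 0.050) per the authors' deposited table. Several members of the family, Klf2, Klf4, Klf6 and Klf10 among them, are also induced rapidly like the immediate early genes. Of 22 such genes outside the family 18 were lower with CMV and 16 with hTNNT2, 0 passing, with medians of -0.093 and -0.035 per the authors' deposited tables. Without adjustment, at p under 0.05, 5 were lower and 0 higher with CMV, and 2 lower and 1 higher with hTNNT2, per the authors' deposited tables. Over all genes, 1.01% were lower and 0.661% higher with CMV, and 1.64% lower and 2.27% higher with hTNNT2. The list was chosen with earlier results known, so these counts are a description. With CMV the AP-1 factor Fosl2 stood at -0.21 (SE 0.071, unadjusted p = 0.0029) and the nuclear receptor Nr4a1 at -0.14 (SE 0.044, unadjusted p = 0.0021) per the authors' deposited table. With hTNNT2 the growth regulator Myc stood at 0.23 (SE 0.083, unadjusted p = 0.0055) and the nuclear receptor Nr4a3 at -0.16 (SE 0.077, unadjusted p = 0.0341) per the authors' deposited table. T, B and NK cell markers, with mean counts of at most 58.7 with CMV and 75.6 with hTNNT2, had medians of 0.044 and -0.028 with 0 of 9 passing per the authors' deposited tables.

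**Figure D4:**
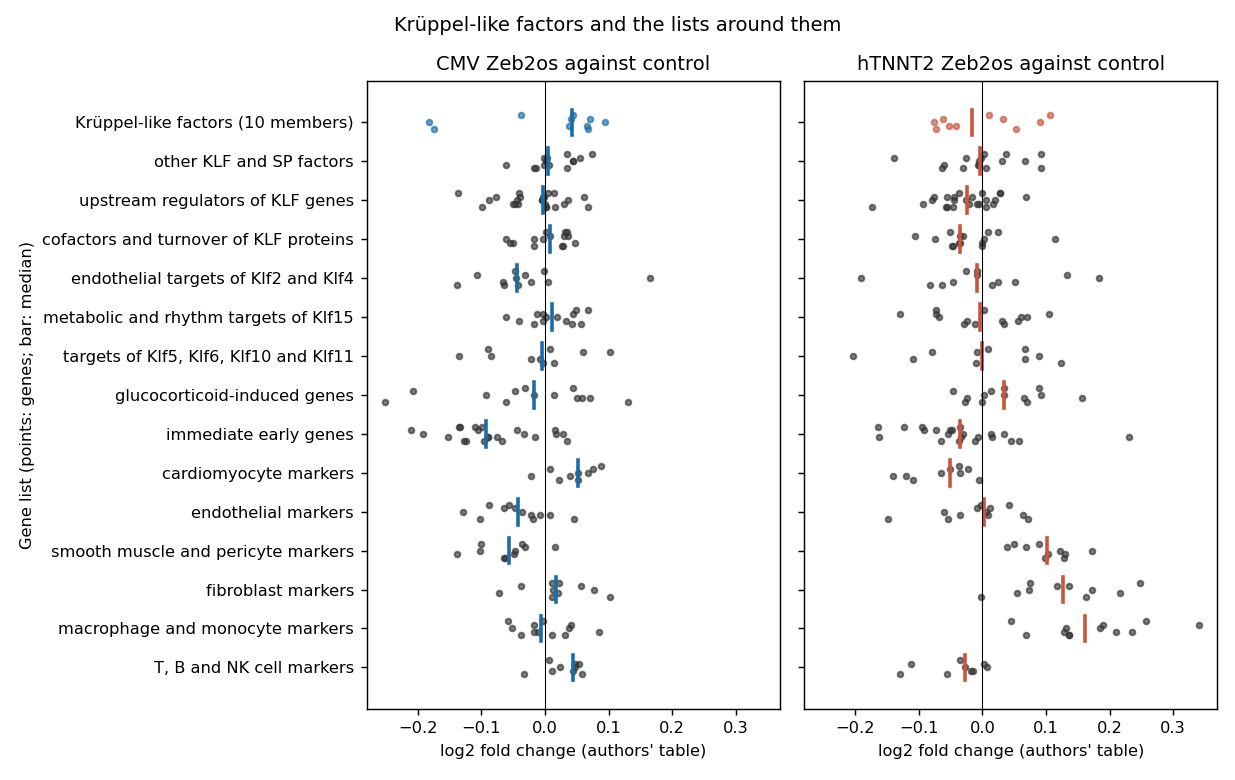
Log2 fold change from the authors' deposited tables of each gene (points) and the median (bar) for the Krüppel-like factors and the 14 lists around them, CMV on the left and hTNNT2 on the right. The members' median is 0.042 with CMV and -0.016 with hTNNT2, and Klf2 and Klf4 stand apart at the left with CMV.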

How the data were processed

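The 10 members and the lists around them were chosen with earlier results of these data known. Per the labels' protocols, libraries were made from total RNA of the apex with removal of ribosomal RNA. The authors used Trim Galore, DESeq2 and the builds GRCm38 and mm10, per the submitters' processing notes. The sources used here do not give the aligner, the counter, its strand setting or any version. Per the file headers, each deposited table holds a mean normalised count (a signal over 10 libraries), a log2 fold change with its SE, a Wald statistic (a score), a p-value and an adjusted p-value of 5 against 5 mice. The sign of the statistic was opposite to that of the fold change wherever neither was 0, so the statistic was turned. No label says that mice were littermates or shared a batch. Depth per library is unknown, so no interval from counts was computed.

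A gene was called at an adjusted p of the authors' DESeq2 under 0.05. The difference between promoters was tested against the combined SE of both tables with a normal p, and the script was tested on simulated data. By rule, named genes were all members, Zeb2os, Zeb2 and, of each list, up to 4 that passed. Where none passed, the 2 with the smallest p in each table were named, and some of these are not printed. Genes named outside this rule, after their values were seen, are marked as such where they appear. Marker lists were those of cardiomyocytes, endothelium, smooth muscle and pericytes, fibroblasts, macrophages and monocytes, and T, B and NK cells. Alternatives were another p adjustment, a minimum mean count of 50, centring on the median gene, an empirical null and other thresholds. Python 3.11.15, numpy 2.4.6, pandas 2.3.3, scipy 1.17.1 and matplotlib 3.10.9 were used.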

Additional observations from a re-analysis of the deposited data

Results flagged for a closer look

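Zeb2os RNA itself differed between the promoters in its deposited fold change. Its log2 fold change was higher with hTNNT2 than with CMV by 0.867 (SE 0.109, adjusted p = 4.02e-11 over 20754 genes), computed from the authors' deposited tables, 4.53 against 3.66. Each fold change is relative to the control of its own promoter. The difference takes both tables to be on the same scale, which the sources used here do not state. The mean normalised count of Zeb2os over 10 libraries was 4138 for CMV and 43281 for hTNNT2 per the authors' deposited tables, or 10.5 times as high. The tables were normalised separately, and genes averaging 50 counts or more had a median ratio of 1.16. The fold changes and the mean counts do not give a promoter difference of the same size. On the deposited scale Zeb2os rose 12.7-fold with CMV and 23.1-fold with hTNNT2. Whether the scale of the fold changes or the level in the controls accounts for that was not tested, so 0.867 is no measure of how much more Zeb2os RNA hTNNT2 gave. Zeb2os was the single gene called in the test of the difference, and 0 of the 10 Krüppel-like factors were.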

How the results depend on the processing

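The count of Krüppel-like factors called was 0 for CMV, for hTNNT2 and for the difference between promoters. For CMV and for hTNNT2 it was also 0 with p adjusted over every gene with a p-value, a minimum mean count of 50 (which leaves 9 of 10 members), centring on the median gene, an empirical null and the threshold 0.1. With CMV the adjustment over every gene with a p-value covered the same genes as the authors' own, so it is no separate check. With hTNNT2 it added 3292 genes that had no adjusted p. The threshold 0.01 was run too and could only give 0. For the difference it was also 0 with Wald statistics in place of fold changes, the minimum mean count, centring and the threshold 0.1, and no other alternative was run for it. With the authors' DESeq2 values, 2 members had an unadjusted p under 0.05 with CMV and 0 with hTNNT2. Of single members, 0 were called under another p adjustment, centring or the empirical null. Only centring could alter a direction, and it shifts all genes of a table by 1 small constant, so it is a weak check. The lowest adjusted p was that of Klf4 with CMV under the empirical null, at 0.444, where Klf2 had 0.523. No paired analysis was possible because the groups share no replicate numbers and the tables hold no value per mouse, and for the latter reason no mouse could be left out. Depth per library is unknown, and 5 mice a group with an SE of 0.051 to 0.083 set the precision.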
